A study of Mus musculus with 8 samples.

Results

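The 10 synaptotagmin genes Syt1, Syt2, Syt3, Syt4, Syt5, Syt6, Syt7, Syt9, Syt10 and Syt11 were examined in RNA-seq libraries made from entire mouse brains. They were taken by gene symbol from a table of 24343 genes and account for 20 of its 34535 transcripts. The study collected whole brains of 3 C57BL/6NCrl mice, an inbred strain, at 56–62 days of age, all kept under the same conditions and without treatment. The data are 3 libraries each of mouse 1 and mouse 2 and 2 libraries of mouse 3. The labels do not say what the library numbers stand for, so the spread between libraries of a mouse may be technical, and tests between the mice describe these 3 animals only. Levels are in FPKM (fragments counted per kilobase of transcript, scaled to the number of mapped fragments), summed over the transcripts of a gene and given as the mean ± SD of the 3 mice unless stated otherwise.

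Synaptotagmins are membrane proteins of secretory and synaptic vesicles that carry a pair of C2 domains facing the cytosol. In many members these domains bind Ca2+ and phospholipids and couple the rise of Ca2+ in a nerve terminal to the fusion of vesicles by SNARE proteins. Members differ in Ca2+ affinity and speed, and some do not act as Ca2+ sensors.

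The levels of the 10 genes spanned a 50.6-fold range, from 235 ± 62.0 FPKM for Syt1 to 4.65 ± 0.803 FPKM for Syt10 (n = 3 mice). Syt1 and Syt11 together made up 66.1% ± 4.09 of the summed level of the 10 genes, which was 585 ± 83.1 FPKM. Syt1, Syt11 and Syt4 ranked 210, 339 and 1008 among all 24343 genes by level, whereas Syt6, Syt9 and Syt10 ranked 6831, 6857 and 9087. Syt1 was lower in mouse 3 than in mice 1 and 2, and Syt6 was the only other member that differed between the mice by the limma test.

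Of the sequences that distinguish the transcripts of these genes, those of Syt7 and Syt6 are shown because their transcripts differ by lengths that equal coding exons and in start site, respectively. The 3 Syt7 transcripts in the table are 6342, 6474 and 6834 bases long. The difference of 132 bases between the first pair equals 1 coding exon of the GENCODE vM21 annotation on GRCm38 (mm10), chr19:10421757-10421888 on the plus strand, or 44 codons. The difference of 492 bases between the shortest and the longest equals a coding exon of 369 bases, chr19:10426299-10426667, plus a coding exon of 123 bases, chr19:10430338-10430460, or 164 codons. The exons of 132 and 123 bases are printed with the exon in capitals and 15 bases of the neighbouring exon on each side in lower case.
Syt7 exon of 132 bases: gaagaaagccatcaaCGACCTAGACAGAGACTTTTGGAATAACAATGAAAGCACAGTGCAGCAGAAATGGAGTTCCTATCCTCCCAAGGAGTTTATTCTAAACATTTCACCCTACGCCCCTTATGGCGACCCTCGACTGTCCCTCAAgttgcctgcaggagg
Syt7 exon of 123 bases: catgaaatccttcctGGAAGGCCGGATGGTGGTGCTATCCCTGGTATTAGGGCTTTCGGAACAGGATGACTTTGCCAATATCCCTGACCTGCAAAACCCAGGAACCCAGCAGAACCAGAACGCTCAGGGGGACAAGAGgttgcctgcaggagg

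Transcripts of Syt6 begin at 2 deposited start sites on the plus strand of chromosome 3, positions 103575282 and 103576126. The sequences upstream of them, from RefSeq on GRCm38.p6, are printed as chr3:103575032-103575230 and chr3:103575876-103576080, ending before the first annotated Syt6 exon that reaches into the window of 250 bases. Capitals mark matches to a GC box (GGGCGG, searched on both strands), the element bound by Sp family factors.
Syt6 upstream start: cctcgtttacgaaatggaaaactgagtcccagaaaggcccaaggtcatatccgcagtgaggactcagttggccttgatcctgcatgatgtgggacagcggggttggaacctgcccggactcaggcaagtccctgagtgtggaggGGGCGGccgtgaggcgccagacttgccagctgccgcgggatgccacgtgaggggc
Syt6 downstream start: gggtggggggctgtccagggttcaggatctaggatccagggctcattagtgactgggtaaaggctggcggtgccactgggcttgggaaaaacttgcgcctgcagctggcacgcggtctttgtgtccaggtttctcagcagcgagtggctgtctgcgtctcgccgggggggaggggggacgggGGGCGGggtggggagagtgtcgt
Both printed stretches hold 1 GC box, and the full windows of 250 bases hold 2 and 1. A GC box was present in 32.7% of all 32851 promoter windows of this length. Neither window holds a TATA box (TATAAA, in 12.4% of windows), a CCAAT box (CCAAT, in 33.8%) or a CRE (TGACGTCA, in 1.55%). The GC content of the Syt6 windows was 62.8% and 66.0%, beside a median of 52.4% over all windows.

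Among the fast Ca2+ sensors of neurotransmitter release, Syt1 was by far the most abundant. Syt1 (chr10:108497650-109010975) triggers synchronous release in forebrain neurons. Its level was 275, 269 and 276 FPKM in the libraries of mouse 1, 268, 272 and 267 FPKM in those of mouse 2, and 180 and 147 FPKM in those of mouse 3. Both libraries of mouse 3 lay below all 6 libraries of the other mice. Syt2 (chr1:134646681-134749417), the fast sensor of many hindbrain and inhibitory synapses, had 21.0, 21.0 and 21.7 FPKM in mouse 1, 21.1, 23.6 and 22.2 FPKM in mouse 2, and 20.7 and 18.4 FPKM in mouse 3. The Syt1 mean was 11.2 times that of Syt2, which was 21.0 ± 1.38 FPKM. Syt9 (chr7:107370790-107548655), a fast sensor of limbic neurons, had 7.89, 9.32 and 8.48 FPKM in mouse 1, 7.46, 7.95 and 8.35 FPKM in mouse 2, and 7.39 and 8.12 FPKM in mouse 3. The libraries of the 3 mice overlapped for Syt9, whose mean was 8.08 ± 0.428 FPKM. Syt5 (chr7:4539765-4546567), close to these sensors in sequence and found on secretory vesicles, ranged from 36.4 to 41.3 FPKM over the 8 libraries. With a mean of 39.2 ± 1.19 FPKM and a coefficient of variation between mice of 3.03%, Syt5 was the steadiest of the 10 genes.

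Syt7 (chr19:10389090-10453181) binds Ca2+ with high affinity and acts in asynchronous release and facilitation. It had 40.1, 39.2 and 41.7 FPKM in mouse 1, 37.8, 38.7 and 40.6 FPKM in mouse 2, and 38.4 and 34.5 FPKM in mouse 3, a mean of 38.6 ± 1.97 FPKM. For Syt7, the libraries of mouse 2 overlapped those of mouse 1 and of mouse 3, whereas those of mouse 3 lay below those of mouse 1. Syt3 (chr7:44384126-44400030), a high-affinity member found at postsynaptic sites, ranged from 12.6 to 15.8 FPKM with a mean of 14.9 ± 0.840 FPKM. Syt3, Syt6 and Syt10 share cysteines near the amino terminus through which they form disulphide-linked dimers. Syt6 (chr3:103575282-103645567), known from exocytosis of the sperm acrosome and also expressed in brain, had 8.40, 9.49 and 10.3 FPKM in mouse 1, 7.82, 9.01 and 9.26 FPKM in mouse 2, and 6.70 and 5.88 FPKM in mouse 3. Both libraries of mouse 3 were again the lowest of the 8. Syt10 (chr15:89782393-89841860), which controls secretion of IGF-1 in olfactory bulb neurons, had 3.94, 3.96 and 3.56 FPKM in mouse 1, 4.69, 4.34 and 5.10 FPKM in mouse 2, and 6.41 and 4.43 FPKM in mouse 3. The libraries of mouse 1 were the lowest 3, and those of mice 2 and 3 overlapped.

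Syt4 and Syt11 have a substitution in the first C2 domain that abolishes its Ca2+ binding, and act in vesicle traffic rather than as fast Ca2+ sensors. Syt11 (chr3:88744701-88772599) had 165, 167 and 169 FPKM in mouse 1, 148, 162 and 162 FPKM in mouse 2, and 141 and 134 FPKM in mouse 3. Its mean was 154 ± 15.1 FPKM, and the libraries of mouse 3 lay below the other 6. Syt4 (chr18:31437808-31447415), present on vesicles that release neurotrophins and peptide hormones, ranged from 59.8 to 65.5 FPKM in mice 1 and 2 and was 53.3 and 62.2 FPKM in mouse 3, a mean of 61.3 ± 3.20 FPKM.

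**Figure D1:**
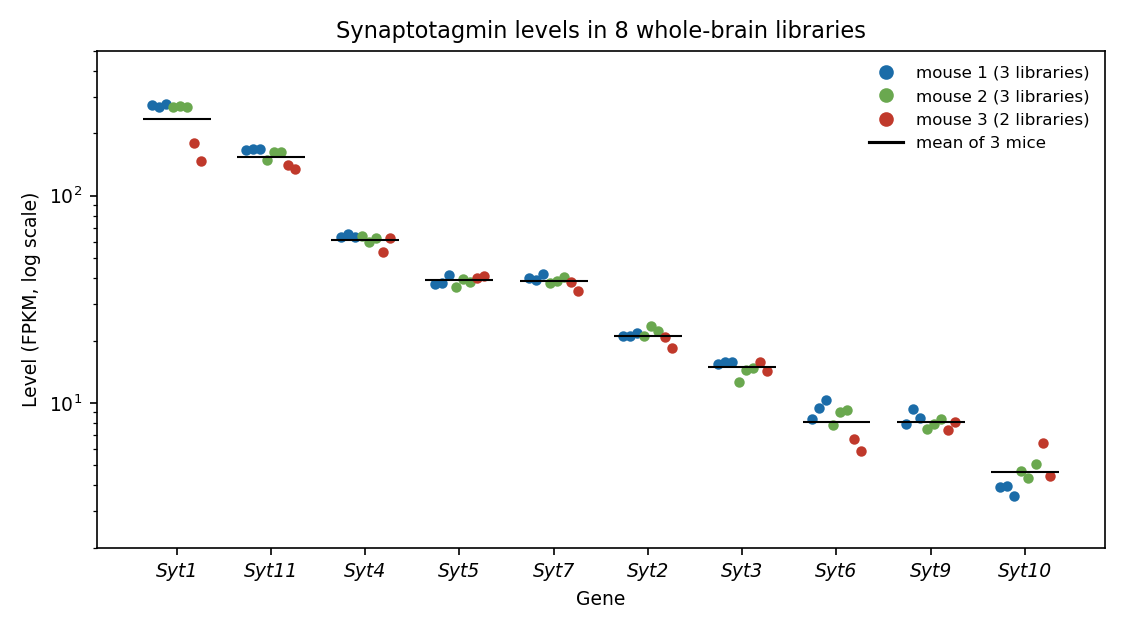
Level of the 10 synaptotagmin genes in FPKM on a log scale, in order of the mean. Each point is a library, coloured by mouse, and the line is the mean of 3 mice; the mouse 3 points of Syt1, at 180 and 147 FPKM, lie apart from the 6 others.

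In order of the mean, the genes ran Syt1, Syt11, Syt4, Syt5, Syt7, Syt2, Syt3, Syt6, Syt9 and Syt10. Syt5 and Syt7 were not separated, since Syt5 was the higher of the pair in 3 of 8 libraries. Syt6 and Syt9 were likewise not separated, with Syt6 higher in 6 of 8 libraries. Syt1 exceeded Syt11 in 8 of 8 libraries, although the lower Syt1 value of mouse 3, 147 FPKM, lay within the range of Syt11, 134 to 169 FPKM. Every other neighbouring pair kept its order in 8 of 8 libraries with no overlap of the ranges. With 3 mice, the smallest two-sided p that an exact sign test of such an order could give is 0.25. Between mice, the coefficient of variation had a median of 6.11% over the 10 genes. Over the 13001 genes that averaged 1 FPKM or more, which include all 10, it was 12.3%. The sets were not matched for level, with a median of 29.8 FPKM for the 10 genes and 8.81 FPKM for all tested. Among the 10 genes it ran from 3.03% for Syt5 to 26.4% for Syt1.

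Levels of the mice were compared with a moderated F-test (limma, on log2(FPKM + 1), Benjamini-Hochberg adjustment over 13001 genes, threshold 0.05). Each limma adjusted p is of this test over the 3 mice, not of the difference of mouse 3 printed beside it. Genes called lower or higher in mouse 3 are those that passed this test, by the sign of that difference. The difference itself was not tested, and a call can also come from mice 1 and 2. Of the 10 synaptotagmins, 2 differed between the mice, Syt1 and Syt6, beside 25.5% of all genes tested. Both were lower in mouse 3, as were 11.3% of all genes tested. The number of synaptotagmins called was thus close to the background. The difference of mouse 3 from the mean of mice 1 and 2 was -0.73 ± 0.0863 (SE) log2 units for Syt1 (limma adjusted p = 0.00629). That of Syt6 was -0.46 ± 0.101 (SE) log2 units (limma adjusted p = 0.0278). The call of Syt6 was lost when mouse 1 library 2, mouse 1 library 3 or mouse 3 library 2 was left out (limma adjusted p of 0.0664, 0.0642 and 0.197) and with the library number as a replicate block (limma adjusted p = 0.0528). The call of Syt1 held in each of the 8 fits without a library, with limma adjusted p between 0.00475 and 0.0470.

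The other 8 genes did not pass the threshold. Syt11 was nearest to it, with a difference of -0.24 log2 units (limma adjusted p = 0.0693), and passed it with TPM (-0.54, 0.00861), without the filter on level (0.0476) and without mouse 2 library 1 (0.0368). Syt10 had the largest positive difference, 0.28 log2 units (limma adjusted p = 0.105), which was 0.05 without mouse 3 library 1, 0.50 without mouse 3 library 2 and 0.03 with TPM. Adjusted p-values of Syt2, Syt3, Syt7, Syt4, Syt9 and Syt5 in limma were 0.290, 0.344, 0.407, 0.419, 0.499 and 0.700. The median difference was -0.12 log2 units over the 10 genes and 0.02 over all genes tested.

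**Figure D2:**
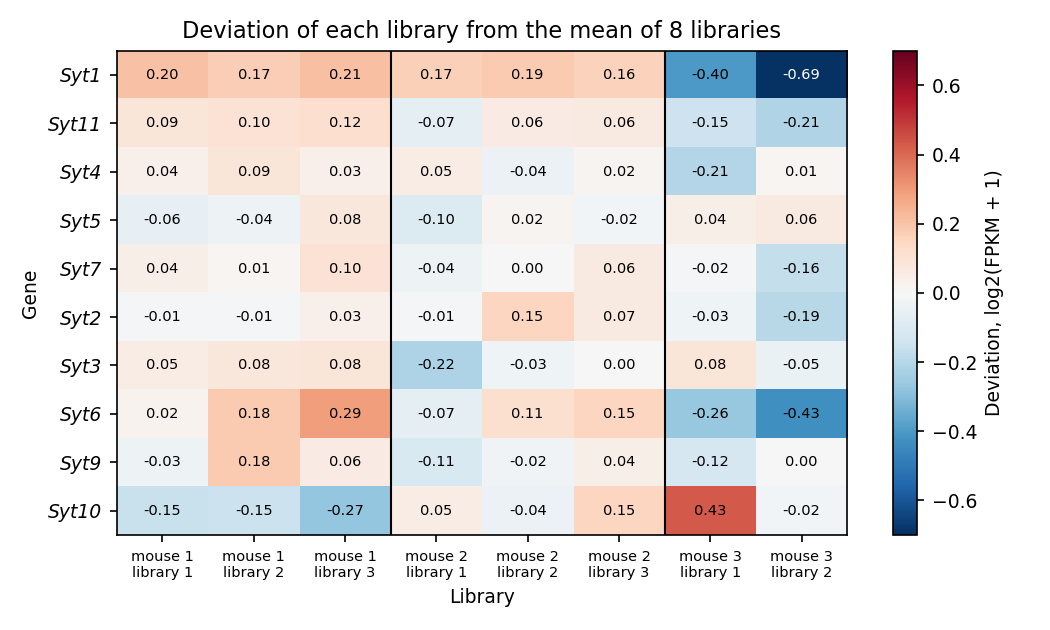
Deviation of each library (columns) from the mean of the 8 libraries for each gene (rows), in units of log2(FPKM + 1). Syt1 deviated by -0.40 and -0.69 in the libraries of mouse 3 and Syt6 by -0.26 and -0.43, while Syt10 reached 0.43 in mouse 3 library 1.

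The libraries of mouse 3 differed from the others in several ways that move with these results. Summed FPKM over all genes was 295541 to 345572 in the libraries of mice 1 and 2 and 384885 and 409889 in those of mouse 3. Across genes, deviations of a library rose with transcript length in mice 1 and 2 (Spearman's rho 0.182 to 0.502) and fell with length in mouse 3 (-0.363 and -0.574). Removing the length trend left Syt1 at -0.61 log2 units (limma adjusted p = 0.00415) and Syt6 at -0.36 (0.0313). Rescaling each library to the same total (TPM, transcript abundance relative to a fixed sum) shifted the median difference of all genes to -0.24 log2 units, and under it 7 of the 10 genes passed the threshold, all lower in mouse 3. Of the 14770 genes tested with TPM, 35.1% passed it and 30.7% were lower in mouse 3. With the length trend removed from TPM as well, Syt1 and Syt6 were again the genes that passed, at -0.63 (limma adjusted p = 0.0102) and -0.41 (0.0409).

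**Figure D3:**
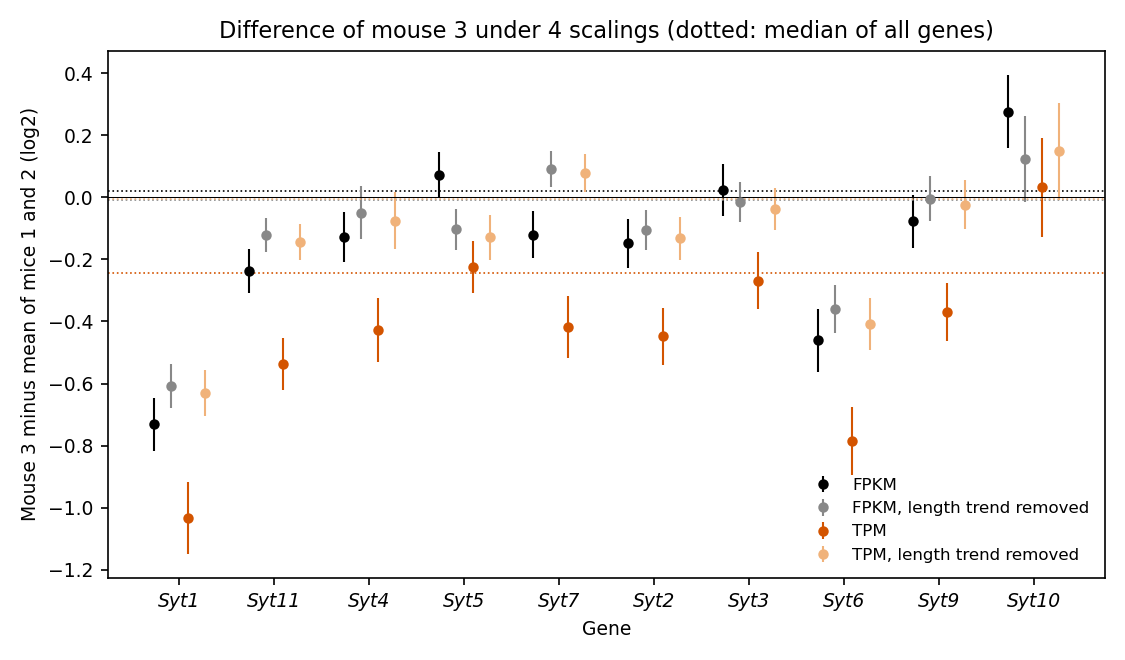
Difference of mouse 3 from the mean of mice 1 and 2 on the log2 scale, with bars of 1 SE, under 4 scalings; dotted lines show the median of all genes. Syt1 was the lowest gene under each scaling, from -0.61 to -1.03, and Syt6 lay below the other 8 genes under each.

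Cell type markers also differed in mouse 3. Summed levels of 5 oligodendrocyte markers were 1990 to 2207 FPKM in the libraries of mice 1 and 2 and 3881 and 4801 FPKM in mouse 3, with 3 of 5 genes higher. Those of 5 astrocyte markers were 486 to 534 FPKM against 730 and 769 FPKM, with 5 of 5 higher (5 of 5 with the length trend removed, 1 of 5 with TPM), beside 14.1% of all genes called higher in mouse 3 with FPKM. For 5 neuronal markers the sums were 1634 to 1784 FPKM against 1471 and 1619 FPKM. Of these genes 1 of 5 was lower (3 of 5 with the length trend removed, 4 of 5 with TPM). Of all genes tested, 11.3% were called lower in mouse 3 with FPKM. With the length trend removed, 1225 of 13001 genes were called lower and 1410 higher. With TPM, 30.7% of all genes were called lower and 656 of 14770 higher. Of the markers of microglia, 2 of 5 were higher in mouse 3 (0 of 5 with TPM). Lists in which a single gene was called with FPKM, near the share over all genes, were endothelium (1 of 4), blood (1 of 5) and olfactory bulb (1 of 4), where it was higher, and choroid plexus (1 of 5) and striatum (1 of 5), where it was lower. Of 5 markers of forebrain excitatory neurons, 2 were lower and 1 higher, and with TPM 4 were lower and 0 higher. Of 5 genes of fast-firing neurons, 3 were lower and 1 higher with FPKM, 1 lower and 0 higher with the length trend removed, and 4 lower and 0 higher with TPM. No marker of any list was at 0 in all libraries. None of the 5 cerebellar markers, the 4 tested of brainstem or the 1 tested of pituitary passed the limma threshold with FPKM. With TPM 2 of 4 brainstem markers were lower. With the length trend removed the pituitary marker, Pomc, was called. Its difference was -0.32 log2 units in that fit and 0.13 with FPKM, so that the sign depended on the scaling. The summed cerebellar markers were 229 to 260 FPKM in mice 1 and 2 and 264 and 403 FPKM in mouse 3, the higher value in library 2, and 3 of 5 were called higher without mouse 3 library 1. In bulk tissue, fewer cells of a type and less RNA per cell cannot be told apart, and the part of these differences in the levels of Syt1 and Syt6 was not tested.

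Shares within the family are free of a common scaling factor of a library, but not of the trend with transcript length. Syt1 made up 43.1%, 42.1% and 42.5% of the summed level in the libraries of mouse 1, 44.1%, 43.0% and 42.3% in those of mouse 2, and 35.4% and 31.3% in those of mouse 3. The summed level itself was 608 to 651 FPKM in mice 1 and 2 and 510 and 470 FPKM in mouse 3. Syt1 and Syt11 have leading transcripts of like length, 4731 and 4567 bases. Their ratio was 1.66, 1.61 and 1.64 in mouse 1, 1.81, 1.68 and 1.64 in mouse 2, and 1.28 and 1.10 in mouse 3. Both values of mouse 3 lay below the other 6; the pair was chosen after the values were seen, so no test is given. Since the shares add up to the whole, a lower share of Syt1 raises the others. The shares of Syt2, Syt3, Syt5, Syt7, Syt10 and Syt11 were higher in both libraries of mouse 3 than in the other 6, with Syt5 at 5.87% to 6.35% in mice 1 and 2 and 7.89% and 8.67% in mouse 3. Those of Syt4, Syt6 and Syt9 overlapped, with Syt6 at 1.29% to 1.59% in mice 1 and 2 and 1.32% and 1.25% in mouse 3.

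Over the 8 libraries, the genes whose deviations from their own mean were nearest to those of Syt1 were Atxn2l, Celf5 and Dnm3. Their mean absolute differences from Syt1 were 0.0185, 0.0188 and 0.0206 log2 units, beside a median of 0.289 over 13000 genes. Atxn2l and Celf5 encode RNA-binding proteins and Dnm3 a dynamin. Of the other synaptotagmins, Syt6 was nearest at 0.125 log2 units, rank 893. These libraries come from 3 animals, and the likeness is a description of their shared spread.

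Syt1, Syt3, Syt6 and Syt7 had more than 1 transcript in the table, and the other 6 genes had 1. The authors' estimation divides the reads of a gene between transcripts that share most of their length, so that these values are less certain than the sums. Syt1 was divided between NM_001252342 (4731 bases), with 48.4% ± 1.55 of its level, NM_009306 (4740 bases), with 44.6% ± 0.806, and NM_001252341 (4820 bases), with 7.01% ± 0.822. All 3 share a start site. The 80 bases by which NM_001252341 exceeds NM_009306 equal an untranslated exon, chr10:108993838-108993917.

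The exons were assigned to the Syt7 transcripts by length alone. NM_173068, whose length fits the exons of 369 and 123 bases, made up 46.3% ± 1.05 of the level. NM_173067, whose length fits the exon of 132 bases, made up 32.5% ± 2.90, and NM_018801, the shortest, 21.2% ± 2.06. This order held in each of the 8 libraries, in which the shares ranged from 43.9% to 49.2%, from 26.3% to 37.1% and from 16.6% to 25.2%. The 2 longer transcripts together carried most of the Syt7 level in every library.

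The 2 Syt3 transcripts differ in length by 27 bases, which equals an alternative stretch at the start of an annotated exon, chr7:44385929-44385955, upstream of the coding sequence. NM_001114116 held 60.0%, 76.4% and 73.4% of the Syt3 level in mouse 1, 63.6%, 65.6% and 63.8% in mouse 2, and 91.1% and 50.3% in mouse 3. The libraries of mouse 3 were the highest and the lowest of the 8, so that the spread within mouse 3 was larger than that between mice. The deposited confidence bounds of the 2 transcripts had a median half-width of 14.2% and 21.4% of the value.

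Of the 6 Syt6 transcripts, NM_001276676 held 51.7% ± 5.07 of the level, NM_001276681 39.9% ± 3.72 and NM_018800 7.89% ± 1.68, and the other 3 at most 0.455% each. By start site, the upstream start at 103575282 gave 59.6% ± 3.41 and the downstream start at 103576126 gave 40.4% ± 3.41. In single libraries, the share of the upstream start ranged from 49.0% to 72.5%, and it did not differ detectably between the mice (exact permutation test, p = 0.696).

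The share of the leading transcript passed the threshold in 0 of these 4 genes, and none had an unadjusted p under 0.05. Exact permutation tests gave p = 0.568 for Syt1, 0.871 for Syt3, 0.511 for Syt6 and 0.521 for Syt7, with Benjamini-Hochberg adjusted values of 0.757, 0.871, 0.757 and 0.757. Shares computed from the deposited coverage gave 0 as well.

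**Figure D4:**
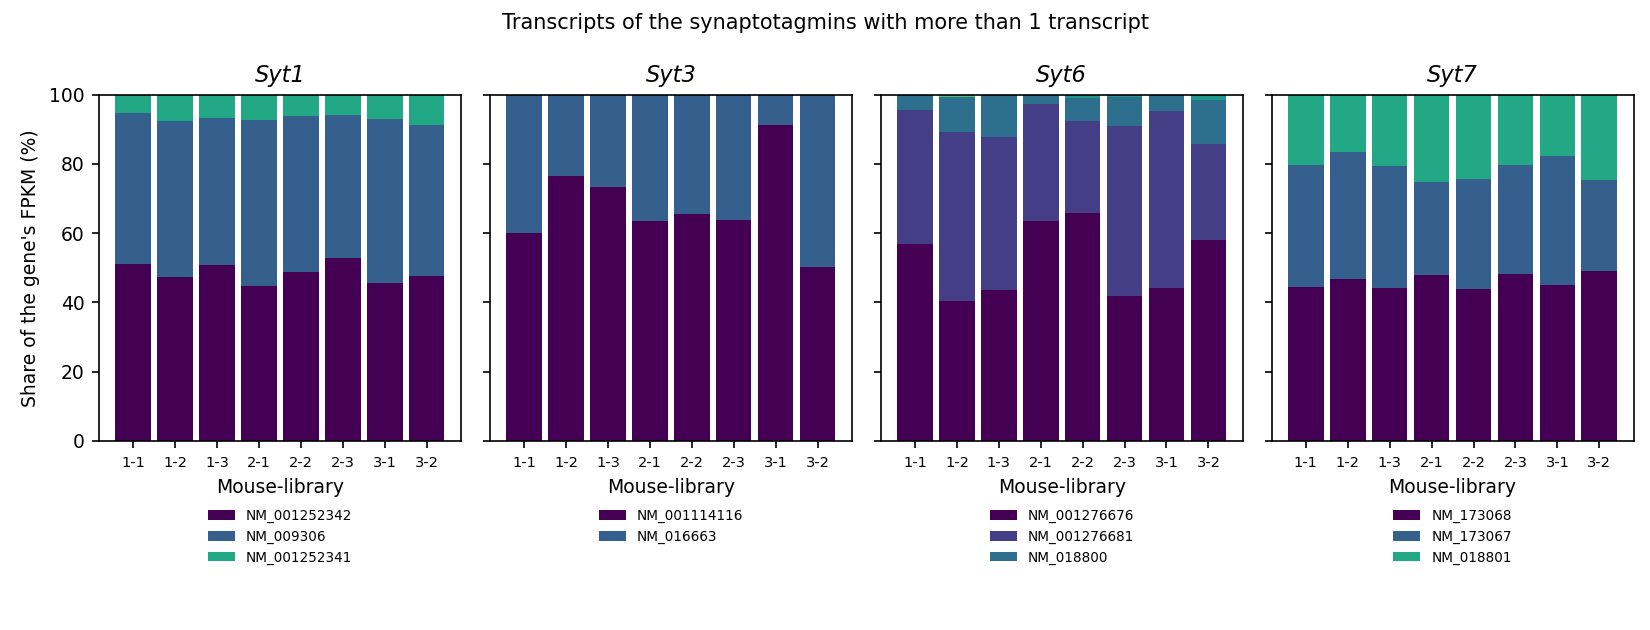
Share of each transcript in the level of Syt1, Syt3, Syt6 and Syt7, in percent of the FPKM of the gene, for each library (mouse and library number). Colours are transcripts and those under 5% on average are not named; the leading Syt7 transcript stays between 43.9% and 49.2%, while that of Syt3 runs from 50.3% to 91.1%.

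The relatives with tandem C2 domains comprised 19 other genes, of which 13 averaged 1 FPKM or more and Syt8 was listed at 0 in all libraries. The highest were Rph3a, encoding the Rab3 effector rabphilin, at 88.1 ± 8.33 FPKM, Syt13 at 43.6 ± 1.10 FPKM and Syt16 at 17.6 ± 0.805 FPKM. Of the 13, 2 differed between the mice in the limma test, beside 25.5% of all genes tested. Doc2a, a high-affinity Ca2+ sensor of spontaneous and asynchronous release, was lower in mouse 3 (-0.39 log2 units, limma adjusted p = 0.0331). Doc2g was higher (0.58 log2 units, limma adjusted p = 0.0137). The call of Doc2a held in 9 and that of Doc2g in 13 of 16 alternatives, and the counts depended on the scaling. With the length trend removed 2 of the 13 relatives were lower and 4 higher, beside 20.3% of all genes called in that fit. With TPM 5 of 16 tested were lower and 0 higher, beside 30.7% of all genes called lower. The median difference was -0.01 log2 units with FPKM and -0.21 with TPM.

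A list of 21 genes of the vesicle release machinery was tested, and 5 differed between the mice, 3 of them lower in mouse 3. Snap25 and Vamp2, SNARE proteins of the plasma membrane and the vesicle, and the vesicle protein Syp were the highest, at 1056 ± 56.3, 366 ± 24.0 and 360 ± 39.4 FPKM. The Snap25 difference was -0.12 log2 units (limma adjusted p = 0.404). The 3 lower genes were Sv2a, a vesicle glycoprotein that binds Syt1, at -0.58 (limma adjusted p = 0.0116), Nsf, an ATPase that takes SNARE complexes apart, at -0.51 (0.0184) and Unc13a, a vesicle priming factor, at -0.50 (0.0425). Nsf and Unc13a were named after their values were seen. The 2 higher genes, both of the active zone, were Unc13c at 0.80 (limma adjusted p = 0.00510) and Rims1 at 0.45 (0.0172). Their share of genes called, 5 of 21, was close to the background of 25.5%, and their median difference was -0.12 log2 units. With the length trend removed, 2 were lower and 1 higher in mouse 3, beside 20.3% of all genes called in that fit. With TPM, 15 were lower and 1 higher, beside 35.1% of all genes called. The call of Unc13a held in 4 and that of Rims1 in 12 of 16 alternatives, and Rims1 was not called with the length trend removed (0.31, limma adjusted p = 0.0885) or with TPM (0.16, 0.356).

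**Figure D5:**
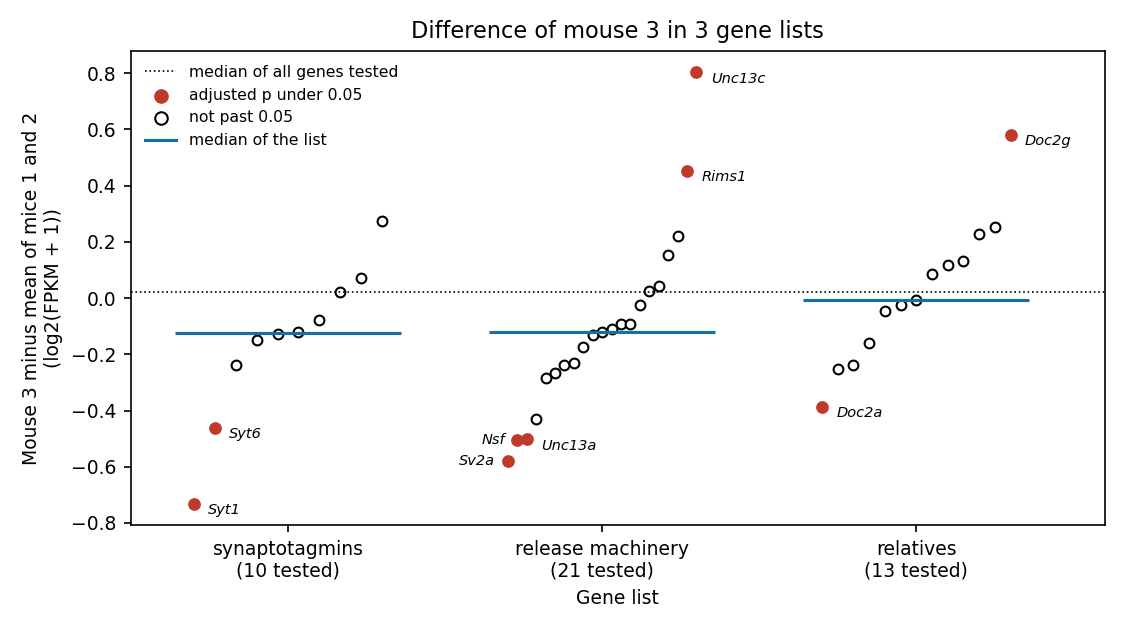
Difference of mouse 3 from the mean of mice 1 and 2 in log2(FPKM + 1) for the tested genes of 3 lists, in order of the difference. Red points passed the threshold and blue lines are medians, at -0.12, -0.12 and -0.01, beside 0.02 for all genes (dotted); Syt1 was the lowest of the synaptotagmins.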

How the data were processed

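RNA of 3 whole brains was sequenced in 8 libraries after mRNA selection with a Kapa HyperPrep kit. According to the submitters' processing notes the authors used TopHat and Cufflinks on mm10; versions, strand setting and annotation are not given in the sources used here. The deposited FPKM values are those that the authors estimated per RefSeq transcript, with confidence bounds and a status; 8 values had the status FAIL, none of them in a synaptotagmin. The deposited coverage is the estimated depth per base, from which 1.31 to 2.02 gigabases on transcripts were computed per library (median 1.76). FPKM did not come in whole multiples of a read, so no counting interval was computed, and errors are given as the SD over mice or as library values. Mouse identity came from the labels.

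FPKM were summed per gene and averaged per mouse, then over mice. Mice were compared with limma 3.58.1 (R 4.3.3), as a moderated F-test on log2(FPKM + 1) among genes that averaged 1 FPKM or more; p-values were adjusted by Benjamini and Hochberg's method and called under 0.05; differences are on that scale, which understates changes of low genes. In simulated data, 200 genes were lowered by 1 log2 unit in mouse 3, with independent noise and no trend with length. Of these, 172 were recovered, with 14 false calls among 13001 genes. These rates need not hold for smaller differences or for libraries with a length trend. Transcript shares were tested exactly over 280 groupings (Python 3.11.15, SciPy 1.17.1). Exons come from GENCODE vM21 and promoter windows from RefSeq. Windows of 7 of the 10 genes were used, 6 of these genes with a window at a deposited start. For the members, windows on chromosome 18, which holds Syt4, were left out. Alternatives were a pseudocount of 0.1, no filter, TPM, removal of the length trend (lowess, span 0.3), the highest transcript, a trended robust prior, a replicate block and each library left out.

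The genes and gene lists were chosen with earlier results of these data known. Named were the 10 genes and, from the relatives and the release machinery, the 3 highest genes and the 3 of largest range among those that differed, and the 3 profiles nearest to Syt1. A gene in 2 lists counted in both. An item of the release machinery list is not reported here and was left out of its counts.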

Additional observations from a re-analysis of the deposited data

Results flagged for a closer look

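In 2 of 31 measures, a library stood apart from the other 7 by the gap to its neighbour relative to the whole range. The measures were levels, shares and a ratio of the synaptotagmins, and levels of other named genes. Both that stood apart were synaptotagmin levels. Chance alone gives a library apart in about 1 of 20 such measures. Syt3 was lowest in mouse 2 library 1, at 12.6 FPKM, beside 14.3 FPKM in the next lowest library (gap of 0.536 of the range). Syt4 was lowest in mouse 3 library 1, at 53.3 FPKM, beside 59.8 FPKM in the next lowest (gap of 0.533 of the range). Neither gene differed between the mice in the limma test.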

How the results depend on the processing

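The limma test called 3310 genes and 2 synaptotagmins. With TPM it called 5191 genes (4535 lower in mouse 3, 656 higher, beside 1475 and 1835 with FPKM) and 7 synaptotagmins, and with TPM and the length trend removed, an alternative chosen after seeing the data, 1985 genes. With the library number as a replicate block it called 2995 genes (960 lower, 2035 higher) and 1 synaptotagmin, Syt1. Whether the library numbers pair the samples is not known from the labels. Deviations of libraries with the same number from their mouse means had correlations of 0.00276 to 0.107 over 7 pairs. Those with other numbers had -0.135 to 0.0645 over 14 pairs. Deviations cancel within a mouse, so the pairs are not independent and do not decide it. Without 1 library each, 126 to 3873 genes and 1 to 3 synaptotagmins were called. The lowest count, 126, was found without mouse 3 library 2, which leaves 1 library for that mouse, assumed to vary like the others, and without libraries 1, 2 and 3 of mouse 1 the counts were 1909, 1785 and 1671. Leaving out mouse 3 library 1 also leaves 1 library for that mouse, but more genes were then called than with all libraries. The low count was thus seen only without mouse 3 library 2, and why these fits differ was not tested. The summed level was 585 FPKM and 1720 TPM. From the highest transcript of each gene it was 437 FPKM, and the Syt1 share was 26.2% in place of 39.7%. These last values are lower by construction for genes with several transcripts. Syt1 and Syt6 were lower in mouse 3 under all 16 alternatives, called in 16 and 12 of them, and the share of the leading transcript was called in 0 genes throughout. A planned split of the summed level by the aspartates of the first C2 domain was not run, because protein sequences were not used here. The causes of the other shifts were not tested.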
